A study of Mus musculus with 24 samples.

Results

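The step between the first and the second day of a protocol that directs mouse embryonic stem cells (mESCs) towards extraembryonic endoderm (XEN) was described in wild-type (WT) cells. It covers 4 of the 24 samples of the series, chosen by their labelled genotype and day: WT day 2 (2 libraries) and WT day 1 (2 libraries). All 30590 genes listed in the files were considered, and 17694 of them passed the filter on low counts and were tested. The cells were the E14 mESC line from strain 129/Ola, kept on gelatin in RPMI medium with serum (15%), activin A (10 ng/mL) and all-trans retinoic acid (0.1 µM), for a planned course of 5 days. WT day 2 and WT day 1 share genotype, line and medium and differ by the labelled day. AGO2 knockout (KO) cells of the same days, KO day 2 (2 libraries) and KO day 1 (2 libraries), were used to set the same step beside the WT one. Polyadenylated RNA was sequenced, and no label says that the 2 libraries of a group are separate cultures. Each p-value rests on a spread estimated within groups over all 16 libraries of days 1 to 4, and that spread may be technical. The labels used here do not tie the KO libraries to a named clone.

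XEN cells are the cultured counterpart of primitive endoderm, the layer of the early embryo that gives rise to the parietal and visceral endoderm of the yolk sacs. GATA and SOX transcription factors specify it, and basement membrane proteins and endocytic receptors are among its products. Retinoic acid acts through nuclear receptors on targets that include Hox genes. A small share of cells in mESC cultures passes through a 2-cell-like state, in which Zscan4 genes and other genes of early cleavage embryos are active, and the mouse factor Dux is known to drive that state.

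Total counts were 17296881 and 19721175 in the day 2 libraries, against 22966542 and 24446291 in the day 1 libraries. The 2 libraries of a day differed beyond counting noise (chi-square over its degrees of freedom 12.6 at day 2 and 15.9 at day 1), and they were kept apart. Replicates of a day had a Pearson correlation of log2 CPM (counts scaled to a common library size) of 0.990 at day 2 and 0.991 at day 1, and libraries of different days 0.948 to 0.965, across genes. Fits with a library left out, given below, have a lone library in a group and less power. A call lost in such a fit therefore does not by itself show that the change rests on the library left out.

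Of 43 gene lists, that of the 2-cell-like state was the only one with every tested member called. All 13 were called higher at day 2, with a median log2 fold change of 3.03, and 13 were called whichever of the 4 WT libraries was left out. Over all genes, 21.3% were called in either direction, 12.6% higher and 8.62% lower (edgeR quasi-likelihood test, Benjamini-Hochberg adjusted p below 0.05), and the median was -0.0018. The lists were chosen with earlier results of these data known, so the place of this list among them adds no support. Its members include families of near-identical copies and are not separate observations. Zscan4c, Zscan4d and Zscan4f, which encode zinc finger proteins linked to telomere maintenance in mESCs, lie on chromosome 7 in mm10 at 11005745-11010547 (plus strand), 11161374-11166159 (minus strand) and 11397915-11402318 (plus strand). Their upstream bases are shown because the members of this family moved together. The lines give RefSeq promoter bases of GRCm38.p6 that end at the annotated gene start, chr7:11005495-11005744 for Zscan4c, chr7:11166160-11166398 on the minus strand for Zscan4d and chr7:11397665-11397914 for Zscan4f, and the capitals mark matches to the Dux motif.
Zscan4c: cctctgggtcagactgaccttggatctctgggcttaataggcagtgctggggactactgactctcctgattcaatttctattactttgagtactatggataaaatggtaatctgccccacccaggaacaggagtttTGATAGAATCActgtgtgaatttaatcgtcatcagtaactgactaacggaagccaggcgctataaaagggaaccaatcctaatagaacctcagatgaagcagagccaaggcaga
Zscan4d: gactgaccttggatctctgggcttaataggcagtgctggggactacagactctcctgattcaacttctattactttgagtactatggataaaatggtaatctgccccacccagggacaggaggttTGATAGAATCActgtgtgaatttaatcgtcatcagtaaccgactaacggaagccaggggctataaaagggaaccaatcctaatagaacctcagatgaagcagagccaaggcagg
Zscan4f: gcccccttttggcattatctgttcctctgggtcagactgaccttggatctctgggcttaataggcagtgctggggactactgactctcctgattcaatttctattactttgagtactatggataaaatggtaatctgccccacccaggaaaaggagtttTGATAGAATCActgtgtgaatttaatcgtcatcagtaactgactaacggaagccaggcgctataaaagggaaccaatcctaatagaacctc
The motif searched was TGATT, any 2 bases, then ATCA, on both strands, and the matches lie on the strand opposite to the one printed. The same letters, TGATAGAATCA, begin 114 bases before the RefSeq start of Zscan4c, 125 before that of Zscan4d and 91 before that of Zscan4f. The RefSeq start of Zscan4d lies 11 bases past the end of its printed line. Counted from the end of the line, its match begins 114 bases before, as in Zscan4c. Of 32851 RefSeq windows of 300 bases (250 before to 50 after a start), 68 held the motif, or 0.207%. Counted by gene, 14 of 12014 tested genes with a window held it, or 0.117%. Of the 10 members of the list with a window, 4 held it, and all 4 were Zscan4 genes. The stretches are alike, so these matches are not independent of each other. Identical bases were 232 of 250 alignment columns (92.8%) between Zscan4c and Zscan4d and 226 of 273 (82.8%) between Zscan4c and Zscan4f. Between Zscan4d and Zscan4f they were 209 of 273 (76.6%). The columns include ends that are not shared, because the printed lines start and stop at different points. The percentages therefore understate the likeness of the aligned bases and do not rank the pairs. A match describes the letters and shows no binding.

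Zscan4c had 105 and 142 CPM in the day 2 libraries, against 13.3 and 19.4 CPM in the day 1 libraries. Both day 2 libraries lay above both day 1 libraries, as in 35.4% of all genes tested. The log2 fold change of Zscan4c was 2.92 ± 0.24 (SE, n = 2 each, edgeR adjusted p = 1.46e-05). Zscan4d had 106 and 128 CPM at day 2 against 9.45 and 17.9 CPM at day 1, and Zscan4f 90.3 and 116 CPM against 9.98 and 16.1 CPM. Zfp352, a zinc finger gene of the 2-cell embryo, had 7.98 and 15.4 CPM at day 2 against 0.441 and 0.673 CPM at day 1, a log2 fold change of 4.38 ± 0.43 (edgeR adjusted p = 2.62e-05). Tdpoz4, a member of a family of TRAF and POZ domain genes, had 6.03 and 11.0 CPM at day 2 against 0.481 and 0.589 CPM at day 1. The 5 Usp17l deubiquitinase genes of the list rose with log2 fold changes of 2.60 for Usp17le to 3.30 for Usp17ld. In each of these genes the second day 2 library was the higher one. Zscan4, Usp17l, Tdpoz and Tcstv genes are families of near-identical copies, so the split of reads between copies is uncertain. Duxf3, the Dux gene of a repeated array, was looked at after the values of its known targets were seen. It had 2.93 and 3.65 CPM at day 2 against 0.721 and 1.18 CPM at day 1, with no overlap and a log2 fold change of 1.79 ± 0.43 (edgeR adjusted p = 0.00928). The call of Duxf3 was lost without day 1 replicate 1 (log2 fold change 1.48) or day 2 replicate 2 (1.62). In bulk RNA, more cells of a type and more RNA per cell cannot be told apart. On day 3 Zscan4c had 145 and 104 CPM, in the range of day 2, and on day 4 it had 43.7 and 55.3 CPM, below days 2 and 3. On day 3 Zfp352 had 11.6 and 8.47 CPM, and on day 4 it had 5.12 and 4.22 CPM.

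**Figure D1:**
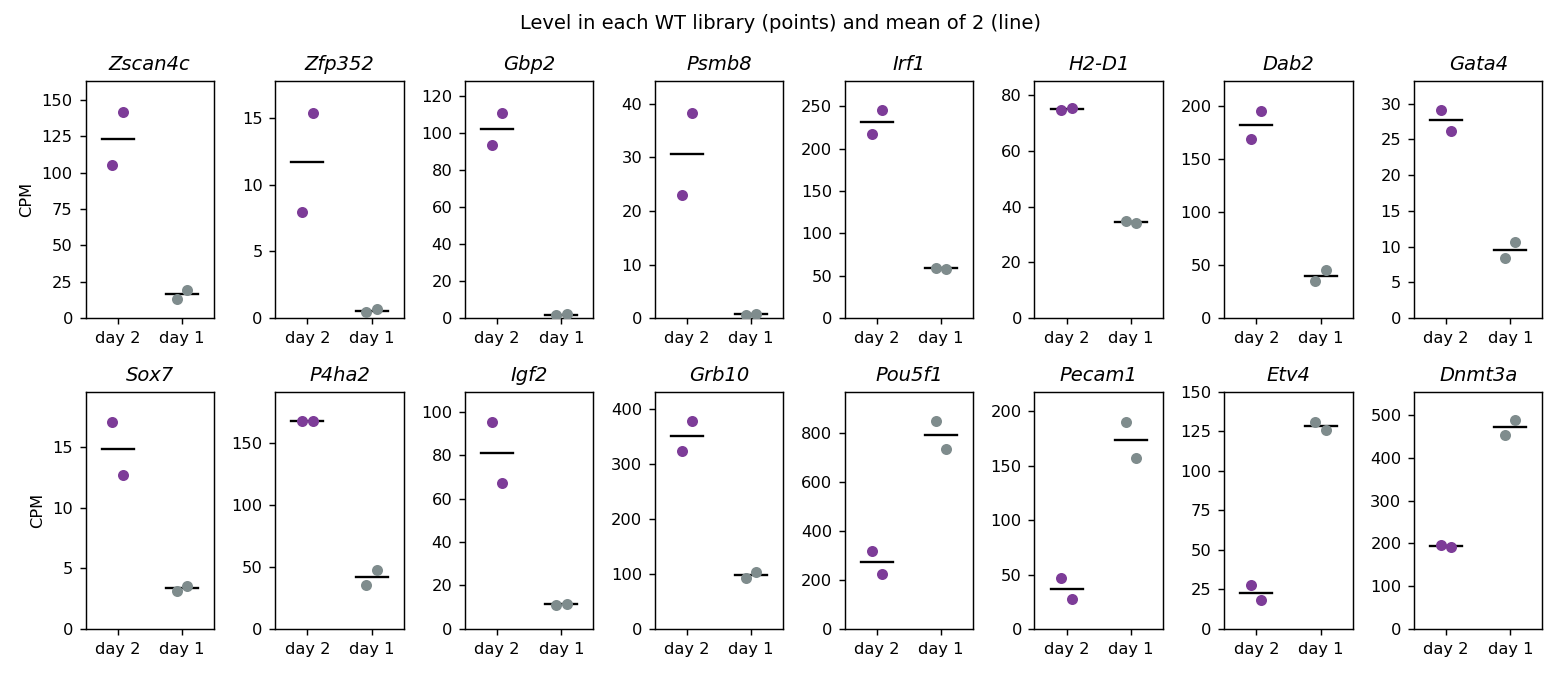
CPM (y axis, from 0) of 16 genes in each of the 2 WT day 2 libraries (purple) and 2 WT day 1 libraries (grey); a point is a library and the line the mean of 2. The first 12 genes have both day 2 libraries above both day 1 libraries, and Pou5f1, Pecam1, Etv4 and Dnmt3a have both below. Of all genes tested, 35.4% have both above and 34.2% both below. All genes shown but Pou5f1 passed the test.

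Genes of the interferon response rose in part. Of 22 tested members, 10 were called higher and none lower, with a median log2 fold change of 1.03, and 6 to 9 were called higher when a WT library was left out (6 without day 1 replicate 1 or day 2 replicate 2). The largest log2 rise among called genes of at least 5 CPM was that of Gbp2, a guanylate-binding protein, part of a family of GTPases induced by interferon that act against intracellular pathogens. Gbp2 and the other Gbp genes given here are not on the list and not in its counts. Gbp2 had 93.7 and 111 CPM in the day 2 libraries, against 1.56 and 2.31 CPM in the day 1 libraries, a log2 fold change of 5.72 ± 0.50 (SE, edgeR adjusted p = 3.44e-05). Gbp2b had 66.0 and 76.5 CPM at day 2 against 1.48 and 1.68 CPM at day 1 (log2 fold change 5.49 ± 0.56). Gbp3 had 14.8 and 20.6 CPM at day 2 against 0.481 and 0.294 CPM at day 1, and Gbp7 29.4 and 31.0 CPM against 1.2 and 1.1 CPM. In these 4 genes both day 2 libraries lay far above both day 1 libraries. A lack of overlap was a condition for naming the largest log2 rises, and it held upwards in 35.4% of all genes tested. Gbp7, Gbp3, Gbp2b and Gbp2 lie side by side on chromosome 3 at 142530342-142638008 in mm10. Among the 8 Gbp genes tested, a set gathered after the values were seen, all 8 were called higher, with Gbp9 lowest at a log2 fold change of 1.63. Exons of Gbp9 overlap those of Gbp4 and Gbp8 on the same strand, so the split of reads between them is uncertain. Gbp8 was low, with 1.19 and 1.43 CPM at day 2 against 0.320 and 0.379 CPM at day 1. The call of Gbp9 was lost without either day 1 library or day 2 replicate 2.

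Psmb8, a subunit of the immunoproteasome, had 22.9 and 38.3 CPM at day 2 against 0.601 and 0.841 CPM at day 1 (log2 fold change 5.40 ± 0.65, edgeR adjusted p = 1.83e-04). Zbp1, a sensor of Z-form nucleic acids that is not on the list, had 21.3 and 27.9 CPM at day 2 against 0.721 and 0.421 CPM at day 1. Irf1, the transcription factor that acts on many interferon-gamma targets, had 217 and 245 CPM at day 2 against 59.3 and 58.6 CPM at day 1 (log2 fold change 1.97 ± 0.27). The genes of the MHC class I molecule rose as well: H2-D1 had 74.6 and 75.2 CPM at day 2 against 34.9 and 34.0 CPM at day 1, and B2m had 28.5 and 35.7 CPM against 11.3 and 12.6 CPM. The 10 called members of the list were Psmb8, Irf1, H2-D1, B2m, Oasl2, H2-K1, Isg15, Bst2, Irf7 and Ifit3. Of these, Isg15, Irf7 and Ifit3 lost their call without day 1 replicate 1 or day 2 replicate 2, Irf7 and Ifit3 also without day 1 replicate 2, and Bst2 whichever library was left out. The signalling members Stat2 and Irf9 did not pass, with log2 fold changes of 0.09 and 0.44. Mx1, Ifitm1, Ifitm2 and Oas1a, also interferon targets, had log2 fold changes between -0.39 and 0.21 and were not called.

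Upstream bases of 4 of these genes are shown for the interferon motifs they hold. They are RefSeq bases of GRCm38.p6 before the annotated start, all on the plus strand, chr3:142594697-142594846 for Gbp2b, chr3:142559894-142560025 for Gbp3, chr3:142530186-142530335 for Gbp7 and chr11:53769864-53770013 for Irf1. Capitals mark GAAA, any 2 bases, then GAAA (TTTC, any 2 bases, TTTC on the opposite strand), the core of the interferon-stimulated response element bound by IRF factors, and TTCNNNGAA, the gamma-activated site bound by STAT factors, both searched on both strands.
Gbp2b: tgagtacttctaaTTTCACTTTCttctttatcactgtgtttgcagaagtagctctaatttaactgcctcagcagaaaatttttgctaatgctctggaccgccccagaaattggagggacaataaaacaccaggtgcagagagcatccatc
Gbp3: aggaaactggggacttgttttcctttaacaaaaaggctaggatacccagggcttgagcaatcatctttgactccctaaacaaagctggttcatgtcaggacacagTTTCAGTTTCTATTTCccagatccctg
Gbp7: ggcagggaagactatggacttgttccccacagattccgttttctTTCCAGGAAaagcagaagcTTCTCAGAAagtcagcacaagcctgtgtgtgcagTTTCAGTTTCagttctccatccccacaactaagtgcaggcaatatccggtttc
Irf1: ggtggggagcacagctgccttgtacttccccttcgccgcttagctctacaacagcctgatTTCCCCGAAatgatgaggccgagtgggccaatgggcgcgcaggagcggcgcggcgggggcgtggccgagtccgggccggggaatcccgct
Counted from the RefSeq start, which in Gbp3 lies 18 bases past the end of the printed line, the response element began 137 bases before it in Gbp2b, 45 and 39 (overlapping) in Gbp3, 53 in Gbp7 and 59 in Gbp2. The gamma-activated site began 106 and 87 bases before the start in Gbp7, 90 in Irf1 and 97 in Psmb8. Gbp3 and Irf1 have 2 RefSeq windows each, and the one with the most matches was printed, or the first where these were equal. Of the 32851 windows, 3.44% held the response element and 8.3% the gamma-activated site. Counted by gene, 3.52% of 12014 tested genes with a window held the response element and 7.94% the gamma-activated site. Of the 19 interferon list members with a window, 9 held the response element and 6 the gamma-activated site. Among the 10 list members called higher, the numbers were 4 and 3. The Gbp genes are not on the list and are left out of these numbers. The matches are letters in a window, not shown sites.

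On day 3 the replicates of these genes stood far apart: Gbp2 had 99.6 and 30.0 CPM, Irf1 109 and 51.3 CPM, and Psmb8 16.4 and 3.35 CPM, with replicate 1 the higher in each. On day 4 Gbp2 had 67.7 and 52.3 CPM, Irf1 65.1 and 67.4 CPM, and Psmb8 4.76 and 5.8 CPM.

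**Figure D2:**
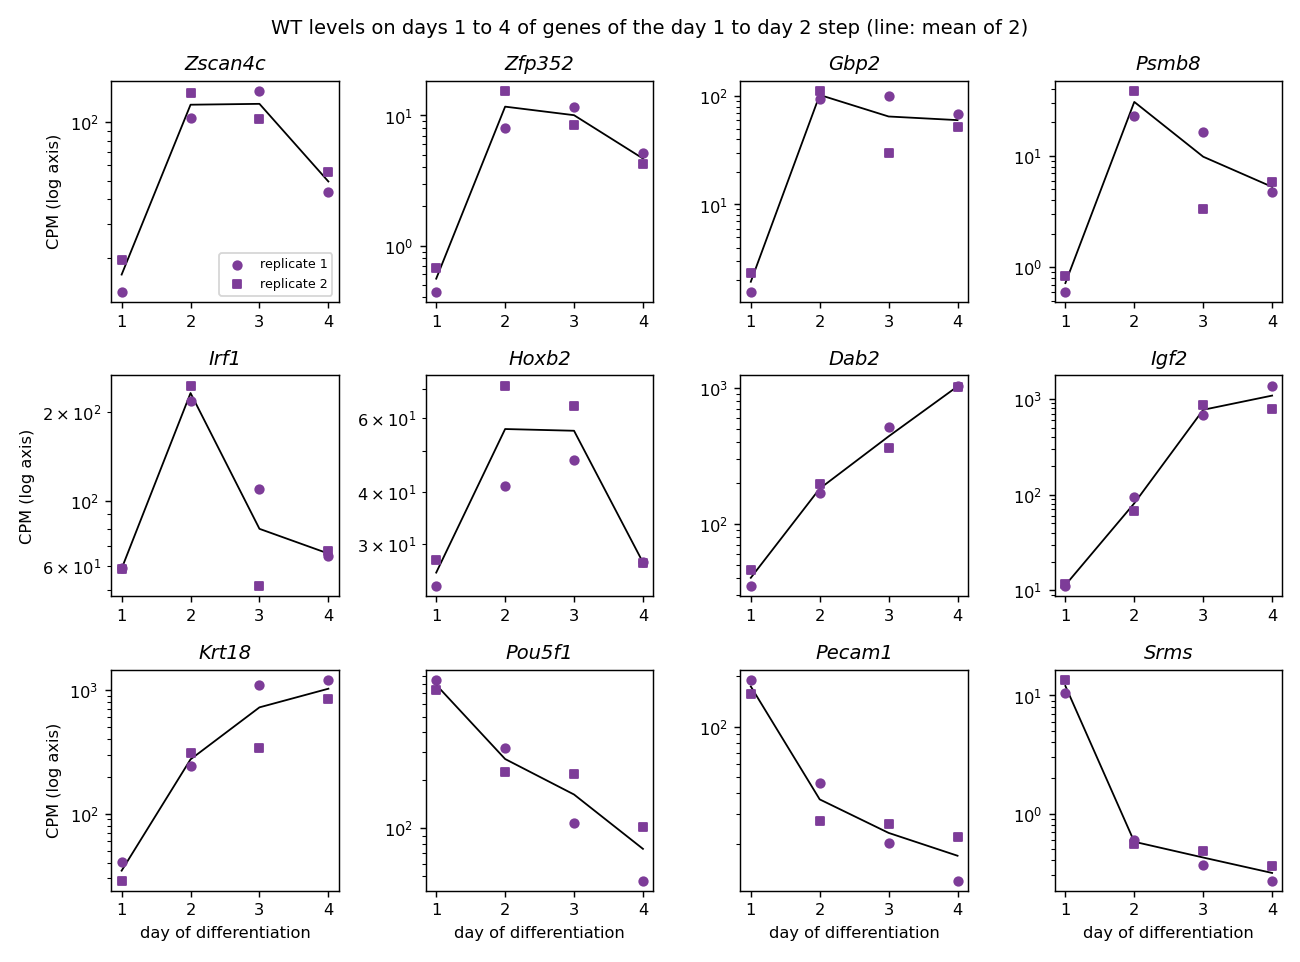
CPM on a log axis against the day of differentiation for 12 genes in the 8 WT libraries of days 1 to 4; circles are replicate 1, squares replicate 2, the line joins the means of 2. Zscan4c, Zfp352, Psmb8 and Irf1 are lower at day 4 than at day 2, Dab2, Igf2 and Krt18 go on upwards, and Srms stays low from day 2.

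Most genes on the list of primitive endoderm and XEN were called higher. Of 25 tested members, 18 were called higher, none lower and 7 not called, with a median log2 fold change of 1.25. Leaving out a library left 11 (day 1 replicate 1) to 15 (day 2 replicate 1), and 10 were called in all 4 cases. Dab2, an endocytic adaptor of primitive endoderm, had 168 and 195 CPM in the day 2 libraries, against 34.8 and 45.6 CPM in the day 1 libraries (log2 fold change 2.18 ± 0.23, edgeR adjusted p = 3.84e-05). Gata4, a transcription factor of primitive endoderm, had 29.1 and 26.2 CPM at day 2 against 8.41 and 10.6 CPM at day 1 (1.54 ± 0.22, adjusted p = 3.70e-04 by edgeR). Sox7, an endoderm SOX factor, had 17.1 and 12.7 CPM at day 2 against 3.16 and 3.58 CPM at day 1 (log2 fold change 2.14 ± 0.27). The day 2 libraries lay above the day 1 libraries in all 3, as in 35.4% of all genes tested. Pdgfra, the growth factor receptor that marks primitive endoderm, had 23.2 and 16.4 CPM at day 2 against 7.05 and 8.24 CPM at day 1, and was called with all libraries (log2 fold change 1.37) but not without day 1 replicate 1 (1.26), day 1 replicate 2 (1.49) or day 2 replicate 1 (1.11). Sox17 was low, with 2.88 and 3.01 CPM at day 2 against 1.12 and 0.925 CPM at day 1, and its call was lost whichever library was left out (log2 fold change 1.38 to 1.66). Gata6, with 18.7 and 16.3 CPM at day 2 against 15.1 and 10.9 CPM at day 1, did not pass (log2 fold change 0.43 ± 0.40, edgeR adjusted p = 0.489).

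Parietal endoderm genes, which build the thick basement membrane of Reichert, gave 12 higher and none lower of 20 tested, with a median log2 fold change of 1.21 and 9 to 11 called higher with a library left out. The parietal and primitive endoderm lists share 7 members, 6 of them called. P4ha2, a collagen prolyl hydroxylase, had 167 and 167 CPM at day 2 against 35.6 and 47.4 CPM at day 1 (log2 fold change 2.01 ± 0.15, edgeR adjusted p = 1.46e-05). Serpinh1, a collagen chaperone, had 719.8 and 901 CPM at day 2 against 225 and 265 CPM at day 1. The chains Col4a2, Lamb1, Lama1 and Col4a1 rose by log2 fold changes of 1.57, 0.96, 1.65 and 1.25. Dkk1, a secreted WNT inhibitor, had 9.29 and 10.0 CPM at day 2 against 1.72 and 1.6 CPM at day 1 (log2 fold change 2.54 ± 0.24). Visceral endoderm genes were mixed: of 22 tested, 5 were called higher and 2 lower, with a median log2 fold change of 0.64. Leaving out a library gave 2 higher (without day 1 replicate 1 or day 2 replicate 2) to 6, and 0 lower (the same libraries) to 1. Cubn, an endocytic receptor of visceral endoderm, had 130 and 115 CPM at day 2 against 30.3 and 56.6 CPM at day 1, and its call was lost without day 1 replicate 1, where its log2 fold change was 1.11 against 1.49 with all libraries. Dpp4, a surface peptidase, had 16 and 12.5 CPM at day 2 against 46.3 and 31.6 CPM at day 1, with its call lost without day 1 replicate 1 or day 2 replicate 2, and Hnf4a, a regulator of the visceral endoderm, 5.16 and 4.30 CPM against 9.94 and 8.62 CPM, with its call lost whichever library was left out. The serum protein genes Afp and Ttr stayed below 1.5 CPM in all 4 libraries. Ttr had 0.597 and 1.48 CPM at day 2 against 0.120 and 0.168 CPM at day 1. Afp had 0.326 and 1.25 CPM at day 2 against 0.0401 and 0.210 CPM at day 1. Neither was called with all libraries and the filter, but Ttr was called in 5 and Afp in 2 of 11 alternatives.

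**Figure D3:**
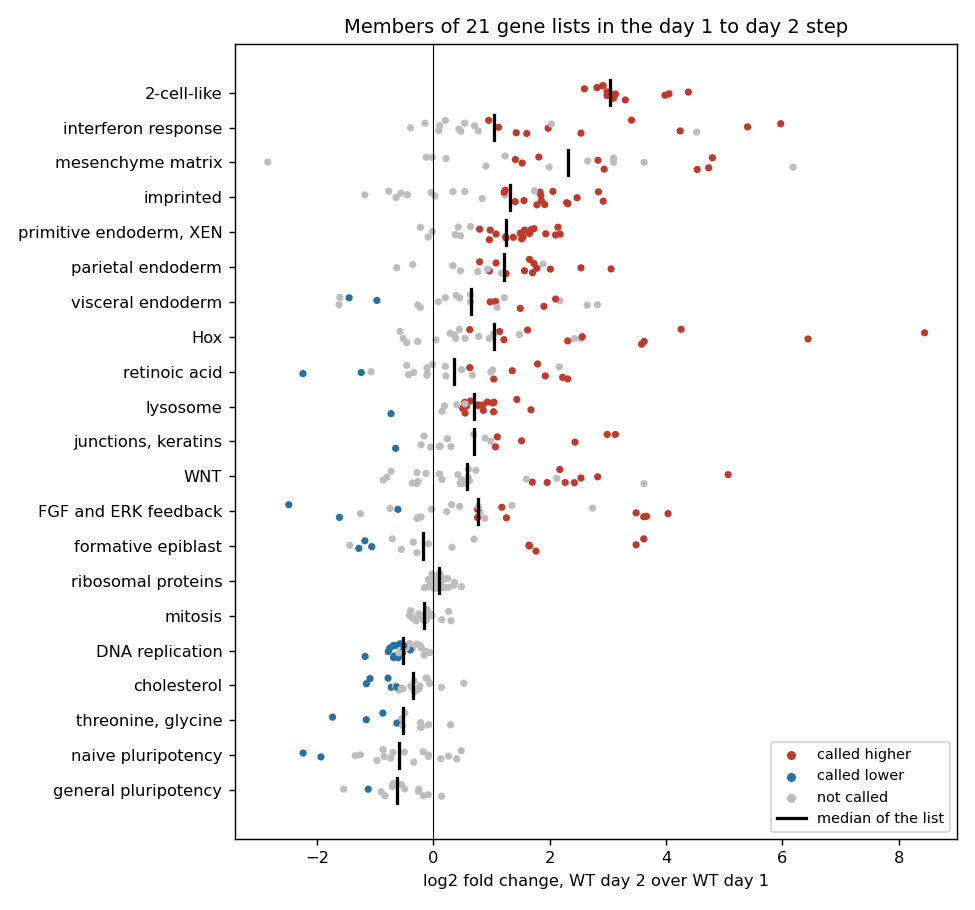
Log2 fold change of WT day 2 over WT day 1 (x axis) for every tested member of 21 gene lists (rows); red and blue points passed the test as higher and lower, grey points did not, and the black bar is the list's median. All 13 2-cell-like genes lie above 2.5, the DNA replication genes lie below 0, and the ribosomal protein genes lie near 0.

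Few pluripotency genes passed the test. Of 18 naive pluripotency genes, 2 were called lower and none higher, with a median log2 fold change of -0.60, and of 14 general pluripotency genes 1 was called lower, with a median of -0.62. These shares are near the 8.62% of all genes called lower. Pou5f1 (OCT4), the central pluripotency factor, had 318 and 225 CPM at day 2 against 849 and 733 CPM at day 1. Both day 2 libraries were below both day 1 libraries, but the log2 fold change of -1.54 ± 0.62 did not pass (edgeR adjusted p = 0.102). Pou5f1, Sox2 and Esrrb were called lower in edgeR fits without the expression filter or of the 4 libraries alone, and in no other alternative. Nanog overlapped between the days, with 345 and 270.3 CPM at day 2 against 399.6 and 296 CPM at day 1. Sox2 had 105 and 103 CPM against 193 and 145 CPM, and Esrrb 118 and 118 CPM against 254 and 178 CPM, neither called with all libraries and the filter. The called genes were Pecam1, an adhesion molecule also found on endothelium, Nr0b1, an orphan nuclear receptor of mESCs, and L1td1, an RNA-binding protein. Pecam1 had 46.4 and 27.2 CPM at day 2 against 190 and 158 CPM at day 1 (log2 fold change -2.24 ± 0.34, edgeR adjusted p = 6.33e-04). With any library left out, 1 naive gene was called, and of the general list 1 gene was called without day 2 replicate 1 and none without each other library. The call of Nr0b1 was lost whichever library was left out. The summed level of 5 defining mESC markers was 1012 and 826 CPM at day 2 against 1920 and 1518 CPM at day 1, and that of 6 primitive endoderm markers 259 and 269.6 CPM against 69.6 and 79.8 CPM. Of the markers of other cells, 4 neural markers summed to 55.2 and 69.3 CPM at day 2 against 58.9 and 54.8 CPM at day 1, with 1 called higher. The 4 trophoblast markers summed to 34.8 and 29.5 CPM at day 2 against 50.8 and 35.7 CPM at day 1, with 1 called higher. Those of blood (3 genes) were at or near 0, with 1 of them at 0 in all 4 libraries, and 4 mesoderm markers summed to 2.82 and 3.24 CPM at day 2 against 3.61 and 3.37 CPM at day 1.

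Formative epiblast genes went both ways, with 5 of 16 called higher and 3 lower. The higher count was 3 without either day 1 library, 4 without day 2 replicate 1 and 2 without day 2 replicate 2, and the lower count was 2 without day 1 replicate 2 and 1 without any other. Fgf5, the classical marker of the primed epiblast, had 7.60 and 5.18 CPM at day 2 against 0.361 and 0.673 CPM at day 1 (log2 fold change 3.62 ± 0.57, edgeR adjusted p = 7.47e-04). Dnmt3a, a de novo DNA methyltransferase, had 196 and 191 CPM at day 2 against 454 and 489 CPM at day 1 (log2 fold change -1.28 ± 0.17). Of 11 DNA methylation writers and TET enzymes, 5 were called lower and 1 higher. Of these, 3 were called lower without replicate 1 of either day and 2 without replicate 2 of either day, and none was called higher in any of the 4 cases. Tet1, the main TET enzyme of mESCs, had 72.1 and 51.1 CPM at day 2 against 184 and 210 CPM at day 1.

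Retinoic acid genes were also mixed. Of 24 tested, 7 were called higher and 2 lower, with a median log2 fold change of 0.35. This list and the Hox list below overlap, since the HoxB gene with the largest log2 fold change, 2.31, is on both. The HOX cofactors Meis1 and Meis2 were among those higher, with Meis1 at 19.6 and 25.9 CPM at day 2 against 5.13 and 4.63 CPM at day 1 (log2 fold change 2.22 ± 0.27, edgeR adjusted p = 1.16e-04). Rarg, a retinoic acid receptor, had 103 and 87.0 CPM at day 2 against 212 and 237 CPM at day 1 (log2 fold change -1.24). Cyp26a1, which degrades retinoic acid, had 82.9 and 148 CPM at day 2 against 259 and 227 CPM at day 1 and was not called (edgeR adjusted p = 0.218).

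Hox genes, which pattern the body axis, were partly higher. Of 27 tested Hox genes, 11 were called higher and none lower, 7 (without day 2 replicate 2) to 12 with a library left out. By cluster, 1 of 8 HoxA genes, 3 of 9 HoxB genes, 5 of 5 HoxC genes and 2 of 5 HoxD genes were called, and HoxA log2 fold changes ran from -0.58 to 0.62. The difference between clusters was not tested. Hoxb1, an early retinoic acid target of the hindbrain, had 105 and 175 CPM at day 2 against 21.6 and 34.9 CPM at day 1, and its call was lost without day 1 replicate 1. Hoxc8 had 1.79 and 2.78 CPM at day 2 and no count in the day 1 libraries, so it was at least 37.7-fold higher, taking 3 counts in the group as the floor. Hoxc9 had 1.47 and 3.19 CPM at day 2 against 0 and 0.0421 CPM at day 1, where 1 count stood against 96, a ratio of 117 (95% counting interval 20.5 to 4664, counting error only). Hoxc4 had 7.82 and 14.8 CPM against 4.17 and 3.20 CPM, with its call lost without replicate 2 of either day.

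Imprinted genes, expressed from only the maternal or the paternal allele, gave 15 higher and none lower of 28 tested, with a median log2 fold change of 1.32. With a library left out, 12 to 14 were called, and 12 in all 4 cases. Igf2, the paternally expressed growth factor, had 95.1 and 67.2 CPM at day 2 against 11.0 and 11.7 CPM at day 1 (log2 fold change 2.84 ± 0.27, edgeR adjusted p = 2.62e-05). Peg10, a retrotransposon-derived gene, had 1409 and 1104 CPM at day 2 against 258 and 437 CPM at day 1 and was among the 6 genes with the largest gain in CPM. Grb10, a growth inhibitor, had 324 and 377 CPM at day 2 against 92.3 and 103 CPM at day 1. The maternal RNAs Meg3 and Rian of the Dlk1-Meg3 locus rose by log2 fold changes of 1.83 and 1.55, while Dlk1 had 4.89 and 3.98 CPM at day 2 against 1.44 and 2.36 CPM at day 1 and was not called. Igf2r, Snrpn and Impact did not pass either. The files do not give allele-specific counts.

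Extracellular matrix and epithelial genes included some of the largest rises. Of 20 fibroblast and mesenchyme matrix genes, 8 were called higher and none lower, with a median log2 fold change of 2.32, and 5 (without day 1 replicate 1) to 7 with a library left out. That median counts each member alike, whatever its level. Summed over the matrix list, the level was 954 and 932 CPM at day 2 against 711 and 868 CPM at day 1. Tagln, an actin-binding protein of smooth muscle, had 72.4 and 131 CPM at day 2 against 3.49 and 3.83 CPM at day 1 (log2 fold change 4.8 ± 0.59, edgeR adjusted p = 2.38e-04). Col1a2, a chain of collagen I, had 13.3 and 10.9 CPM at day 2 against 0.320 and 0.715 CPM at day 1. Of 6 fibroblast or feeder markers, Dcn, Postn and Col3a1 were at or below 0.0925 CPM in all 4 libraries, and the 6 summed to 32.9 and 27.9 CPM at day 2 against 13 and 12.7 CPM at day 1. Acta1, the skeletal alpha actin, and Cyp1b1, a cytochrome P450, were also among the 12 largest rises, with 12.1 and 29.0 CPM against 0.481 and 0.379 CPM, and 18.1 and 30.3 CPM against 0.401 and 0.589 CPM, day 2 against day 1. Of 17 tight junction and simple keratin genes, 6 were called higher and 1 lower. Krt18 and Krt8 encode the keratin pair of simple epithelia. Krt18 had 241 and 309 CPM at day 2 against 40.7 and 28.8 CPM at day 1, and Krt8 185 and 225 CPM against 42.9 and 33.0 CPM. Among regulators of epithelial-mesenchymal transition, 6 of 18 were called higher and 1 lower, with Snai1 at 9.67 and 16.8 CPM at day 2 against 3.37 and 4.37 CPM at day 1 (higher counts 2 without day 1 replicate 1, 4 without day 1 replicate 2, 5 without day 2 replicate 1 and 3 without day 2 replicate 2, and none lower).

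Signalling genes moved in both directions. Of 30 WNT genes, 8 were called higher and none lower, 5 (without day 1 replicate 2) to 8 with a library left out. Beside Dkk1, the inhibitors Dkk3 and Sfrp5 rose, Sfrp5 with 44.6 and 68.1 CPM at day 2 against 6.09 and 9.84 CPM at day 1. Of 25 FGF and ERK feedback genes, 8 were called higher and 3 lower. The higher count was 3 without day 1 replicate 1, 4 without replicate 2 of either day and 7 without day 2 replicate 1, and the lower count fell to 1 without either day 2 library. The ligands Fgf10, Fgf5, Fgf8 and Fgf3 were among the higher ones, Fgf10 with 10.2 and 10.2 CPM at day 2 against 0.521 and 0.715 CPM at day 1 (log2 fold change 4.03 ± 0.37, edgeR adjusted p = 2.47e-05). The ERK-induced factor Etv4 and the inhibitors Spry4 and Spred2 were the lower ones. When a library was left out, Fgf3 was called in no case, Fgf8 not without replicate 2 of either day, Spry4 not without either day 2 library, and Spred2 only without day 1 replicate 2. Etv4 had 27.7 and 18.1 CPM at day 2 against 131 and 126 CPM at day 1 (log2 fold change -2.49 ± 0.25). Of 21 Nodal and activin genes, 2 were called higher and 1 lower, with 1 and 1 when any library was left out. With all libraries, the called shares of the Nodal and activin genes lay below those of all genes, 12.6% higher and 8.62% lower. Inhbb, which encodes an activin subunit, had 2.72 and 2.91 CPM at day 2 against 38.6 and 26.8 CPM at day 1, and Fst, a secreted activin antagonist, 2.39 and 3.79 CPM against 0.441 and 0.294 CPM.

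DNA replication genes were lower, while mitosis genes were not called. Of 24 replication genes, 13 were called lower and none higher, with a median log2 fold change of -0.52. The count rested on the libraries: it was 6 without day 1 replicate 1, 8 without day 1 replicate 2 or day 2 replicate 1, and 2 without day 2 replicate 2. Rrm2, a ribonucleotide reductase subunit, had 146 and 145 CPM at day 2 against 356 and 301 CPM at day 1 (log2 fold change -1.17 ± 0.13, edgeR adjusted p = 6.55e-05), and its call held in all 4 cases. Pcna, the clamp of DNA polymerases, had 230.5 and 206 CPM at day 2 against 356 and 339 CPM at day 1, and its call was lost without day 2 replicate 2. None of 20 mitosis genes was called by edgeR (3 at an unadjusted p below 0.05, and 1 with DESeq2), and their median was -0.16. Of 15 G1 cyclins, CDKs and CDK inhibitors, 3 were called lower (Ccnd1, Ccnd3 and Ccne1) and 2 higher (Ccnd2 and Cdkn2a), with 2 lower and none higher when any library was left out. Ccnd1 had 35.8 and 32.2 CPM at day 2 against 82.6 and 92.5 CPM at day 1, and Ccnd2 42.1 and 33.8 CPM against 17.5 and 20.9 CPM. Among the 6 largest losses in CPM were chaperone and nucleolar genes. Hsp90aa1 averaged 2969.6 ± 385 CPM at day 2 against 5796 ± 319.6 CPM at day 1, and Ncl (nucleolin) 1814 ± 107 CPM against 3263 ± 328 CPM (SD, n = 2 each). None of 30 ribosomal protein genes was called by edgeR (1 at an unadjusted p below 0.05, none with DESeq2).

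Of 20 lysosome genes, 15 were called higher and 1 lower, with a median log2 fold change of 0.70, but the higher count ranged from 4 (without day 2 replicate 2) through 6 and 7 (without day 1 replicate 2 or 1) to 12. Hexa, a lysosomal hexosaminidase, had 64.7 and 72.2 CPM at day 2 against 26.7 and 24 CPM at day 1 (log2 fold change 1.43 ± 0.20, edgeR adjusted p = 2.70e-04). Of 13 genes of threonine and glycine catabolism, 5 were called lower, with 3 without day 1 replicate 1, 4 without day 1 replicate 2, 2 without day 2 replicate 1 and 1 without day 2 replicate 2. Tdh, the threonine dehydrogenase on which mESCs depend, had 15.0 and 16.3 CPM at day 2 against 58.0 and 46.1 CPM at day 1, and its call was held only without day 1 replicate 2 when a library was left out. Of 21 cholesterol genes, 5 were called lower, with none without day 1 replicate 1 or day 2 replicate 2, 2 without day 1 replicate 2 and 3 without day 2 replicate 1.

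**Figure D4:**
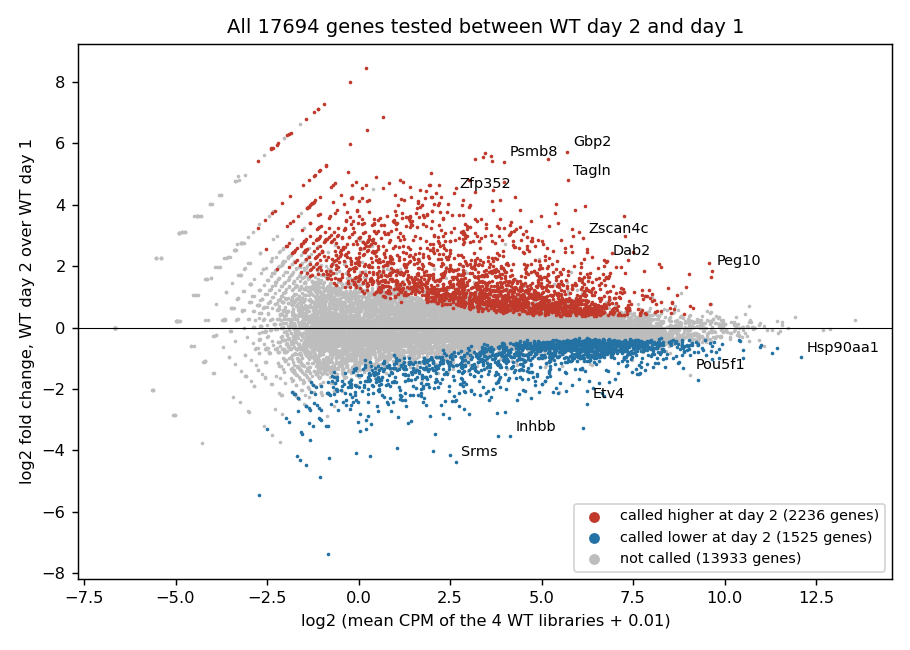
Log2 fold change of WT day 2 over WT day 1 (y axis) against the log2 mean CPM of the 4 WT libraries plus 0.01 (x axis) for the 17694 genes tested; red points were called higher (2236), blue lower (1525) and grey not called. Named points include Gbp2 at 5.72, Srms at -4.37 and Pou5f1 at -1.54, which was not called.

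Over all genes, 3761 were called, 2236 higher and 1525 lower, of which 1448 and 606 changed at least 2-fold and 100 and 12 at least 16-fold. The count was 1487 without day 1 replicate 1, 1977 without day 1 replicate 2, 2292 without day 2 replicate 1 and 1259 without day 2 replicate 2, and 1064 genes (767 higher, 297 lower) were called with all libraries and in all 4 cases. Groups did not overlap in 69.6% of genes, 35.4% higher and 34.2% lower. The largest gains in CPM beside Peg10 included Col18a1, a basement membrane collagen, with 1201 ± 4.71 CPM at day 2 against 380.3 ± 70.2 CPM at day 1, and Igfbp2, an IGF-binding protein, with 1238 ± 30.2 CPM against 291 ± 17.4 CPM (SD, n = 2 each). Among called genes of at least 5 CPM, the largest log2 falls were those of Srms, a cytoplasmic tyrosine kinase, and Gjb1, a connexin. Srms had 0.597 and 0.555 CPM at day 2 against 10.5 and 13.5 CPM at day 1 (log2 fold change -4.37 ± 0.41, edgeR adjusted p = 2.47e-05). Khdc3, a gene of the maternal egg complex, had 0.706 and 0.694 CPM at day 2 against 8.89 and 6.77 CPM at day 1. Sept1, a septin, had 15.2 and 10.8 CPM at day 2 against 139 and 114 CPM at day 1. Among genes given here, exons of Sept1, Tagln, Irf1, Irf7, Igf2, Dab2, Gbp2, Psmb8, Pou5f1, Pdgfra, Gata6, Sox17, Cubn, Dpp4, Col4a1, Col4a2, Fst, Krt8, Dnmt3a, Fgf10, Meis1, Meg3, Snrpn, Tdh, Hexa, Ccnd1, Ccnd2, Ccnd3, Ago2, Irs2, Jun, Gata3, Hand2 and Notch3 overlap an annotated gene on the other strand. Their values are uncertain to that extent, and the strand setting of the counting was not given in the sources used here. Some genes, among them Irf9 with Rnf31 and Gbp9 with Gbp4 and Gbp8, have exon overlaps on the same strand.

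The same step in AGO2 KO cells gave 7612 called genes (43%), 4058 higher (22.9%) and 3554 lower (20.1%). Ago2 itself, an Argonaute protein that binds small RNAs, had 56.1 and 84.6 CPM in KO day 2 libraries against 272 and 201 CPM in WT day 2 libraries, and 43.4 and 33.8 CPM in KO day 1 libraries against 332 and 414 CPM in WT day 1 libraries. In WT cells its level at day 2 against day 1 was not called (log2 fold change -0.66 ± 0.29, edgeR adjusted p = 0.12). The KO and WT steps share no library. Genes higher in both numbered 1630, which is 40.2% of those higher in KO and 72.9% of those higher in WT, genes lower in both 1074, or 30.2% and 70.4%, and 8 were called in opposite directions. The difference of the change between KO and WT was called in 21 genes (0.119%), 7 higher (0.0396%) and 14 lower (0.0791%). By edgeR it was 26 without WT day 2 replicate 1, 2240 without KO day 1 replicate 1 and 0 without any 1 of the other 6 libraries (1766 to 3712 genes at an unadjusted p below 0.05), and DESeq2 with all libraries called 731.

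Of the 2-cell-like list, 12 members were called higher in KO and 13 in WT, with a median log2 fold change of 1.38 in KO and 3.03 in WT, and 3 of the 13 were called for the difference. Zscan4c had 80.8 and 102 CPM in KO day 2 libraries against 39.7 and 49.9 CPM in KO day 1 libraries, a log2 fold change of 1.03, against 2.92 in WT. The KO day 1 libraries were above the WT day 1 libraries, which had 13.3 and 19.4 CPM, and the KO day 2 libraries below both WT day 2 libraries. The interferon gene Gbp2 had 69.2 and 82.5 CPM in KO day 2 libraries against 2.44 and 2.58 CPM in KO day 1 libraries, and Irf1 261 and 246 CPM against 66.3 and 54.6 CPM in the same order. Ribosomal protein genes gave 26 of 30 lower in KO, with a median of -0.68, and none in WT, with a median of 0.09, and none of them was called for the difference.

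**Figure D5:**
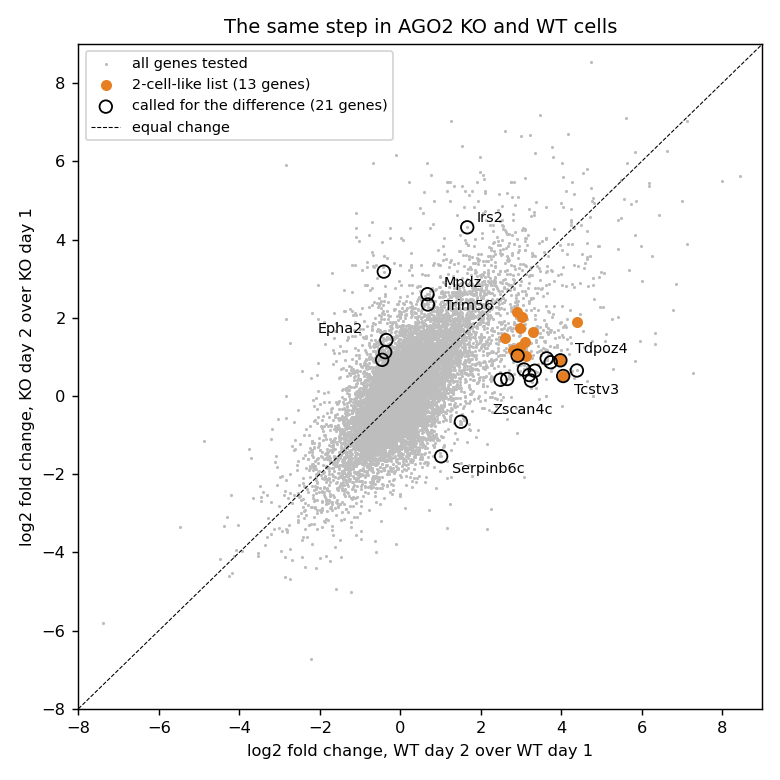
Log2 fold change of day 2 over day 1 in KO (y axis) against the same in WT (x axis) for 17694 genes; orange points are the 13 2-cell-like genes, open circles the 21 genes called for the difference and the dashed line marks equal change. The 13 genes lie below the line, right of 2.5 in WT.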

How the data were processed

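Polyadenylated RNA of the WT and KO courses was sequenced as TruSeq libraries, and the deposited values are whole-number read counts per gene, 1 file per library, made with STAR 2.5.0c and featureCounts 1.4.5-p1 on mm10, per the submitters' processing notes. The annotation release and strand setting are not given in the sources used here. Groups were taken from the sample titles. Counts of the 16 libraries of days 1 to 4 (10601574 to 27147835 per library) were fitted with edgeR 4.0.16 (R 4.3.3), using TMM factors, filterByExpr by group with a minimum count of 10, robust quasi-likelihood estimation and 8 group means without covariates. WT day 2 was set against WT day 1, KO day 2 against KO day 1, and the 2 changes against each other. A gene was called when its Benjamini-Hochberg adjusted p, over 17694 genes, was below 0.05. CPM are relative to the TMM-scaled library size, and errors of fold changes are standard errors. On simulated counts the pipeline was tested for the WT comparison.

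Named genes were 11 fixed genes, the 12 largest log2 rises and falls of at least 5 CPM without overlap, the 6 largest rises and falls in CPM, the called members of each of 43 lists with the smallest p (up to 5, or 2 where none was called) and up to 5 genes each way for the difference. Other list members, Duxf3 and the Gbp family were named after their values were seen. The members and lists were chosen with earlier results of these data known. Predicted and clone-named genes were counted and not named. Coordinates come from a GRCm38 annotation, promoters from RefSeq. Alternatives were DESeq2 size factors, DESeq2 1.42.0, no filter, a 2-fold threshold, a replicate block, the compared libraries alone, and each library left out. Depth limits genes of few counts. Some list members are not reported here.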

Additional observations from a re-analysis of the deposited data

Results flagged for a closer look

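The difference of the day 1 to day 2 change between KO and WT (KO minus WT, log2) passed the edgeR test with all 16 libraries for the genes given here, and leaving out a library changed the number of such calls as given for the count of 21. It was 2.65 for Irs2, an adaptor of insulin signalling, which had 38.4 and 62.0 CPM in KO day 2 libraries against 3.32 and 1.66 CPM in KO day 1 libraries, and 27.1 and 21.7 CPM in WT day 2 libraries against 5.81 and 9.59 CPM in WT day 1 libraries. Irs2 was called higher in both genotypes. The difference was 1.93 for Mpdz, a scaffold of tight junctions, 1.77 for the ephrin receptor gene Epha2, 1.65 for Trim56, a ubiquitin ligase of antiviral signalling, and 1.49 for Bahcc1. Epha2 was called higher in KO and not called in WT, with 529 and 581 CPM in KO day 2 libraries against 199 and 213 CPM in KO day 1 libraries.

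Differences below 0 were -1.89 for Zscan4c, -2.56 for Serpinb6c, -3.07 for Tdpoz4 and -3.54 for Tcstv3. Serpinb6c, a serpin, had 1.70 and 1.32 CPM in KO day 2 libraries against 4.64 and 4.19 CPM in KO day 1 libraries, and 5.38 and 5.97 CPM in WT day 2 libraries against 3.08 and 2.52 CPM in WT day 1 libraries, and was called lower in KO and higher in WT. The call in WT did not hold when replicate 2 of either WT day was left out. Tcstv3 had 5.53 and 5.73 CPM in KO day 2 libraries against 2.78 and 5.16 CPM in KO day 1 libraries, and 6.14 and 11.1 CPM in WT day 2 libraries against 0.361 and 0.673 CPM in WT day 1 libraries. Zscan4c, Tdpoz4 and Tcstv3 belong to families of near-identical copies.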

How the results depend on the processing

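Over the WT alternatives, direction changed in no gene named here that was called with all libraries. With a library left out it changed in 6 named genes that were not called, whose log2 fold changes ran from -0.38 to 0.053 for Nanog, -0.30 to 0.38 for Mx1, -2.03 to 2.23 for Postn, -0.11 to 0.031 for Snrpn, -0.098 to 0.31 for Stat2 and -0.11 to 0.36 for Ifitm1. The WT count of 3761 (2236 higher, 1525 lower) stayed within 1.5 times with DESeq2 size factors, DESeq2, no filter and the replicate block (3488), of which the calls shared with the block were 3439. It was 2054 (1448 higher, 606 lower) with a 2-fold threshold and 6351 (3446, 2905) in a fit of the 4 libraries alone. Leaving out a library gave 1259 to 2292 (930 to 1548 higher, 329 to 754 lower). The KO count of 7612 was 4035 (2413, 1622) with the 2-fold threshold and 3802 to 7351 (2070 to 3533 higher, 1732 to 3818 lower) with a library left out. The difference, called in 21 genes, was called in 32 with DESeq2 size factors (24 lower), 731 with DESeq2 (412 higher, 319 lower), 1603 without the filter (939, 664), 133 in a fit of the 8 libraries (56, 77), 11 with the replicate block (3, 8) and 0 to 2240 with a library left out (0 to 1023 higher, 0 to 1217 lower). The cause of these shifts was not tested. Replicate numbers were not taken to pair libraries. The sample titles carry the same numbers on each day, so a pairing is possible, but no label says what a number marks. Deviations of same-numbered replicates correlated across genes at -0.13 between WT day 2 and WT day 1, -0.18 between KO day 2 and KO day 1, and -0.18 to 0.39 over all pairs of the 8 groups. A crossed pairing, chosen after seeing the data, called 3646 genes in WT and 4 for the difference (2 higher, 2 lower). With 2 libraries per group, a lone library left in a group is assumed to vary like the others.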

Other observations

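Small groups not described so far also held called genes. Of 19 cardiac and lateral mesoderm genes, 7 were called higher and 1 lower, all 7 below 6 CPM in the 4 libraries, and the higher count was 2 without day 1 replicate 1 or day 2 replicate 2, 3 without day 1 replicate 2 and 7 without day 2 replicate 1. The cardiac list gene called lower was Pecam1, which is also counted above among the naive pluripotency genes. Hand2, a heart and limb factor, had 0.597 and 1.2 CPM at day 2 and no count at day 1, which makes it at least 15.0-fold higher, taking 3 counts in the group as the floor. Of 13 trophoblast genes, 4 were called higher, among them Gata3 with 4.34 and 3.89 CPM at day 2 against 0.561 and 0.967 CPM at day 1, and 1 (without day 1 replicate 2) to 2 (without any other library) when a library was left out. Of 15 NOTCH genes, 3 were called higher and 1 lower, with 1 higher without either day 1 library, 2 without day 2 replicate 1 and none without day 2 replicate 2. Notch3 had 478 and 475 CPM at day 2 against 80.7 and 149 CPM at day 1, and its call was lost without day 1 replicate 1 (log2 fold change 1.68) or day 2 replicate 2 (2.05), while Notch4 had 3.37 and 2.78 CPM against 11.1 and 10.7 CPM.

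Jun and Fos, subunits of the AP-1 factor, were called higher. Jun had 43.6 and 69.6 CPM at day 2 against 11.5 and 13.3 CPM at day 1 (log2 fold change 2.19 ± 0.40, edgeR adjusted p = 0.00263). Fos had 5.16 and 21.4 CPM at day 2 against 1.00 and 1.09 CPM at day 1 (edgeR adjusted p = 0.0222), and its call was lost without either day 1 library or day 2 replicate 2. In the list of heat shock and immediate early genes, 6 of 19 were called higher and 2 lower. The higher count was 1 without day 1 replicate 1 or day 2 replicate 2, 3 without day 1 replicate 2 and 5 without day 2 replicate 1, and the lower count was 1 without day 1 replicate 1 or day 2 replicate 2.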
